A study of Mus musculus with 18 samples.

Results

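WT and DKI monocyte-derived cells (MDCs) were compared after 3 days of culture with GM-CSF. The 3 WT and 3 DKI libraries of that day are 6 of the 18 RNA-seq libraries of the study, and the comparison takes every gene with a mean above 2 RPKM in WT or in DKI MDCs. RPKM scales the reads of a gene by its length and by the mapped reads of the library. This rule kept 9740 of the 20298 genes in the deposited table. The values of the unstimulated cells (day 0) and of day 6 are given only beside those of day 3. DKI mice are Stat5a-Stat5b double knockin mice on the C57BL/6 background (C57BL/6J in the study's methods), with mutations in the N-domains of both proteins that leave STAT5 dimers intact and prevent tetramers. The alleles are in the germline, so every cell in the culture carried them. The labels give C57BL/6 for WT cells as well, GM-CSF was given at 20 ng/mL to both genotypes, and the ages of the mice are not given in the sources used here. The cells were Ly6C+ CCR2+ monocytes, enriched by removing other cells with antibodies rather than sorted one by one. The sample labels give liver as the tissue, whereas the study's design gives bone marrow. Of 6 hepatocyte genes, Alb, Apoa1, Ttr, Serpina1a and Cyp3a11 were at 0 in all 6 libraries and Fga reached at most 0.00841 RPKM. The comparison asks which genes respond differently to GM-CSF when STAT5 can form dimers only. The account leaves out the genes of the study's heatmaps of dendritic and macrophage genes.

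GM-CSF is a cytokine that keeps monocytes alive and drives them towards dendritic cells or macrophages. Its receptor activates the kinase JAK2, which phosphorylates STAT5A and STAT5B. Phosphorylated STAT5 pairs into dimers that bind DNA, and a pair of dimers on neighbouring motifs can join through their N-domains into a tetramer.

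The depth of the 6 libraries was estimated at 31.1 to 39.4 M mapped reads, so that 3 reads on a gene of 1 kb corresponded to at most 0.0963 RPKM. The replicates are stated to come from independent experiments. Within a genotype, libraries correlated between 0.885 and 0.964 across genes on the log2(RPKM + 1) scale, and between genotypes from 0.743 to 0.911. DKI replicate 1 stood apart. Interferon-stimulated genes made up 1.79% of its summed RPKM, against 0.358% and 0.139% in DKI replicates 2 and 3 and 0.0722% to 0.113% in WT. Its library name and that of WT replicate 1 carry an earlier year than those of the other 4 libraries, and list counts that change without it are given in both forms. Levels of neutrophil genes were wide in both genotypes, summing over 11 genes to 192 to 4500 RPKM in WT and 577 to 2840 RPKM in DKI. The part of neutrophils in the results was not tested. In these bulk libraries, fewer cells of a type and less RNA per cell cannot be told apart.

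On day 3, 410 genes were lower and 313 genes were higher in DKI MDCs. A gene was called when limma gave a Benjamini-Hochberg adjusted p under 0.05 and the fold change exceeded 1.5, both on the log2(RPKM + 1) scale, which understates the change of genes with low RPKM. The called genes were 7.42% of the 9740 fitted genes, with 4.21% lower and 3.21% higher. The changes were large. Of the lower genes 335 changed by over 2-fold, 137 by over 4-fold and 14 by over 16-fold, and of the higher genes 255, 107 and 21 did so. Calls were made at every level of expression. They took 3.98% (lower) and 2.67% (higher) of genes with a mean of up to 5 RPKM, and 5.47% and 5.17% of genes above 100 RPKM.

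**Figure D1:**
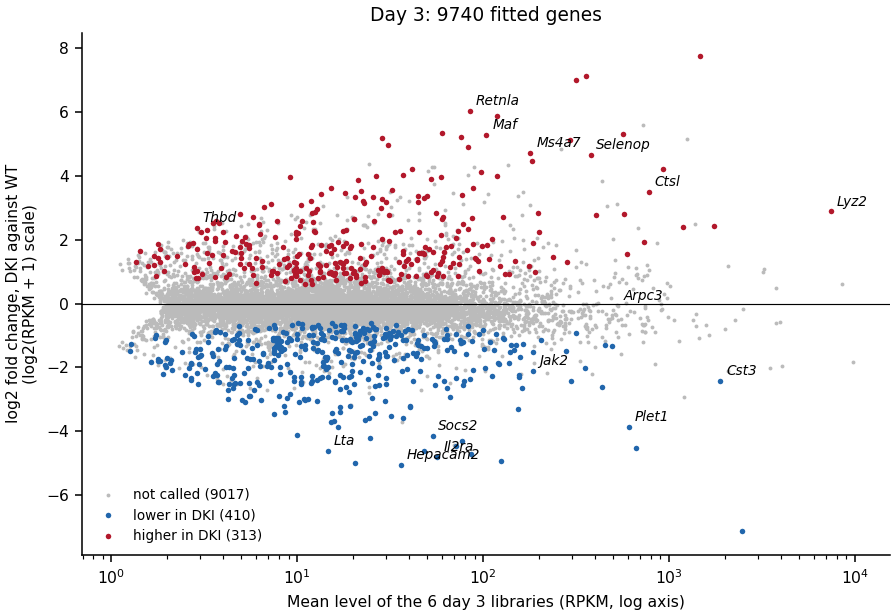
Change against level on day 3. Each point is 1 fitted gene, with its mean RPKM over the 6 libraries on a log axis and its log2 fold change between DKI and WT MDCs on the vertical axis. The 410 genes called lower (blue) and the 313 called higher (red) are spread over the whole range of levels, and grey points are genes not called.

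The fold changes were shifted slightly below 0. The median over all fitted genes was −0.11 on the log2 scale and −0.03 without DKI replicate 1, 61.4% of genes had a negative value, and 90% of the values lay between −1.19 and 1.30. Values did not overlap between the genotypes for 36.3% of genes. Of the 9740 genes, 2583 had an unadjusted p under 0.05. Besides the called genes, 1941 exceeded 1.5-fold without passing the adjusted threshold, some of them among the 2583. The spread between replicates was larger in DKI, with a median SD of 0.282 on the log2 scale against 0.192 in WT. Fitting the replicate number as a block gave 288 lower and 263 higher genes, and 440 genes were called in both fits. The number of calls depended on the libraries used. Without WT replicate 1, 2 or 3 there were 197, 216 and 205 calls. Without DKI replicate 2 or 3 there were 415 and 432, and without DKI replicate 1 there were 715, of which 556 were among the 723.

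For 2359 genes (24.2%) the 95% interval of the change lay wholly inside 1.5-fold in either direction. The 5 of these with the highest level were Arpc3, Clic1, Actr2, Dazap2 and Coro1b. Arpc3, a subunit of the Arp2/3 complex that builds branched actin, was at 554.6, 560.1 and 517.8 RPKM in WT and 596.6, 479.2 and 479.7 RPKM in DKI, so the genotypes overlapped. Actr2, another subunit of that complex, had a log2 fold change of −0.06 ± 0.17 (SE, n = 3). Clic1, an intracellular chloride channel protein, had −0.01 ± 0.18, and Coro1b, which binds Arp2/3, had −0.02 ± 0.18. Dazap2 had 0.06 ± 0.17.

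Most genes that were lower in DKI stood well above their day 0 level in WT cells. Over the 410 lower genes the median day 0 level was 5.10 RPKM for WT and 4.96 RPKM for DKI monocytes. After 3 days WT MDCs had a median of 23.9 RPKM and DKI MDCs one of 6.35 RPKM. Of these genes 288 (70.2%) were over 2-fold above day 0 in WT, against 14.7% of all fitted genes, and 80 of the 288 were over 2-fold above day 0 in DKI as well. In 199 genes WT was over 2-fold above day 0 while DKI stayed within 2-fold of it. In another 40 genes WT stayed within 2-fold of day 0 and DKI was over 2-fold below it. The called genes were chosen on their day 3 levels, which enter these counts, so that no test was made.

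The genes that were higher in DKI did not form a single class. Their median day 0 level was 15.2 RPKM for WT and 15 RPKM for DKI monocytes, and after 3 days it was 7.20 RPKM for WT and 27.3 RPKM for DKI. In 94 of the 313 genes, DKI was over 2-fold above day 0 and WT was within 2-fold of it. In 87 genes (27.8%), WT was over 2-fold below day 0 and DKI was within 2-fold of it, and in 20 genes the 2 genotypes had moved over 2-fold in opposite directions. On day 0, 36.1% of the lower genes were under 2 RPKM in both genotypes, against 16% of the higher genes and 10.6% of all fitted genes. In the separate libraries of day 6 the medians were 26.5 RPKM in WT and 7.68 RPKM in DKI for the lower genes, and 8.86 RPKM and 25.7 RPKM for the higher genes.

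**Figure D2:**
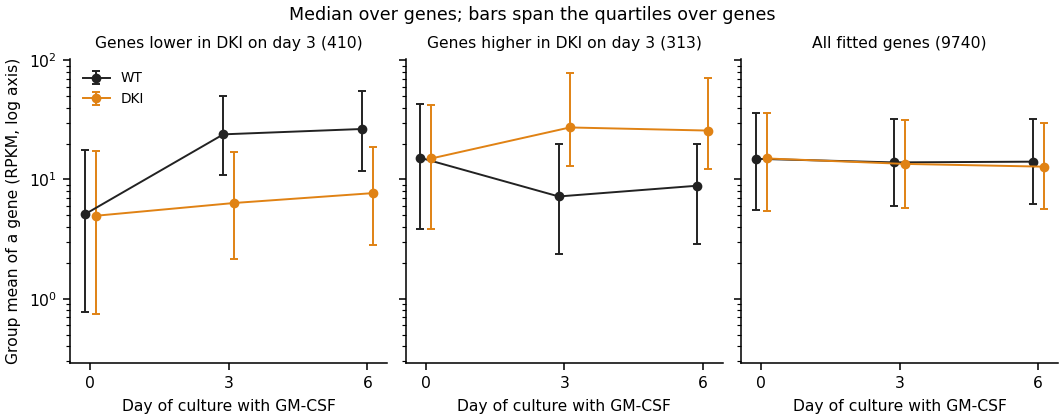
Levels over the culture of the genes called on day 3. Points are medians over genes of the group mean RPKM (log axis) in WT (black) and DKI (orange) libraries on days 0, 3 and 6, and bars span the quartiles over genes. The genotypes start together, with medians of 5.10 and 4.96 RPKM for the lower genes, and on day 3 they are at 23.9 and 6.35 RPKM.

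Of the 723 called genes, 33 belong to the study's heatmaps, which were drawn from these samples, and 690 do not (396 lower and 294 higher). Outside the heatmaps, the largest losses in DKI MDCs were in genes that were nearly silent before GM-CSF. Hepacam2, a cell adhesion molecule of the immunoglobulin family, was at 100.3, 55.3 and 57.1 RPKM in WT and at 0.569, 1.10 and 1.69 RPKM in DKI. Every WT library was far above every DKI library, and on day 0 the mean was 0.115 RPKM in WT. The log2 fold change of Hepacam2 was −5.06 ± 0.30 (limma adjusted p = 0.00256).

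Lta encodes lymphotoxin alpha, a secreted cytokine of the TNF family. It was at 27.0, 39.7 and 20.6 RPKM in WT and 0.221, 0.239 and 0.0929 RPKM in DKI, with no overlap and a log2 fold change of −4.62 ± 0.25 (limma adjusted p = 0.00239). Tnfrsf9, the costimulatory receptor 4-1BB, was at 177.3, 227.2 and 87.6 RPKM in WT and 16.9, 4.55 and 1.04 RPKM in DKI. Its DKI values varied by over 10-fold, and the change was −4.71 ± 0.79 (limma adjusted p = 0.0239). Its call was lost without any 1 WT library or without DKI replicate 2, and its log2 fold change ranged from −5.51 without DKI replicate 1 to −3.94 without DKI replicate 3. On day 6 the mean of Tnfrsf9 was 467.8 RPKM for WT and 24.9 RPKM for DKI.

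Plet1, Cldn1 and Enah were in the same set. Plet1, a surface protein, was at 885.2, 1135 and 1337 RPKM in WT, and at 27.5, 197.8 and 75.8 RPKM in DKI (log2 fold change −3.87 ± 0.67, limma adjusted p = 0.0254). Its mean on day 0 was 0.220 RPKM in WT. Cldn1, a tight junction claudin, was at 128.7, 209.3 and 96.1 RPKM in WT and 1.19, 15.9 and 8.49 RPKM in DKI. The calls of Plet1 and Cldn1 were lost without any 1 WT library or without DKI replicate 3, and their fold changes moved by over 1.5 times without DKI replicate 1 or 2, to −3.16 and −4.56 at the ends for Plet1 and −3.45 and −4.92 for Cldn1. Enah, a regulator of actin filaments, was at 46.1, 22.9 and 21.5 RPKM in WT against 1.48, 0.658 and 2.01 RPKM in DKI. Its log2 fold change was −3.67 ± 0.35 (limma adjusted p = 0.00679), and it was called whichever library was left out.

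The other genes of this set were lower by similar amounts. Kcp, a secreted regulator of BMP signalling, was at 25.3, 20.7 and 13.7 RPKM in WT and at no more than 0.210 RPKM in any DKI library. Slc27a3, of the fatty acid transport protein family, was at 71.2, 54.0 and 18 RPKM in WT and at most 2.28 RPKM in DKI, and lost its call without WT replicate 2. Igflr1, a receptor of the TNF receptor superfamily, had a log2 fold change of −3.86 ± 0.31 (limma adjusted p = 0.00458), and Nanos1, an RNA-binding protein, had −3.72 ± 0.38 (limma adjusted p = 0.0069). For Kcp, Igflr1 and Nanos1 the call was kept without any 1 library.

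The smallest p-values among the next lower genes came from tight replicates. Hemk1, a methyltransferase, was at 45.3, 49.1 and 43.3 RPKM in WT and 2.27, 2.17 and 4.70 RPKM in DKI (−3.59 ± 0.25, limma adjusted p = 0.003). Hs3st3b1, which adds sulfate to heparan chains, was at 28.4, 26.3 and 32.1 RPKM in WT and at most 3.09 RPKM in DKI (−3.43 ± 0.28). Pacsin1, an adaptor of endocytosis that was also on the list of plasmacytoid dendritic cell markers, was at 7.06 to 8.96 RPKM in WT and 0.173 to 0.752 RPKM in DKI (−2.70 ± 0.22). The 5 markers of that list summed to at least 7.69 RPKM in WT and 0.898 to 2.74 RPKM in DKI, and 3 of them were under 1 RPKM in every library. The part of such cells was not tested.

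Beyond these genes, the largest differences in mean RPKM among the lower genes were in Cst3, Napsa, Zyx and Syngr2. Cst3 encodes cystatin C, an inhibitor of cathepsins, and was at 3593, 3344 and 2611 RPKM in WT and 565.4, 603.4 and 600.0 RPKM in DKI. The DKI values lay close to the day 0 means of 551.5 RPKM in WT and 521.6 RPKM in DKI. The log2 fold change of Cst3 was −2.42 ± 0.25 (limma adjusted p = 0.00692), and it was called without any 1 library. Napsa, an aspartic protease, was at 1070, 472.3 and 716.9 RPKM in WT and 75, 123.6 and 172.7 RPKM in DKI (−2.60 ± 0.42, limma adjusted p = 0.0209, and 0.053 with the replicate block). Syngr2, a vesicle membrane protein, changed by −2.01 ± 0.21 and Zyx, a protein of focal adhesions, by −1.34 ± 0.24 (limma adjusted p = 0.0069 and 0.0274). The calls of Napsa and Zyx were lost without WT replicate 1 or 3 or DKI replicate 2, and that of Zyx also without DKI replicate 3.

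Among the genes higher in DKI, Retnla had the largest change and also the largest error. Retnla encodes the secreted protein RELM alpha, a marker of alternatively activated macrophages. It was at 1.28, 0.133 and 0.260 RPKM in WT and at 222.1, 13.8 and 271.9 RPKM in DKI. The groups did not overlap, but DKI replicate 2 was far below the other two DKI libraries, and the log2 fold change was 6.03 ± 1.10 (limma adjusted p = 0.0289). The call was kept only without DKI replicate 2, where the value was 7.38. It was lost without DKI replicate 1 or 3 or any 1 WT library, with values down to 5.28. On day 6 the genotypes overlapped, with Retnla at 0.389 to 177.7 RPKM in WT and 2.53 to 925.0 RPKM in DKI.

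Maf, a transcription factor of macrophages, was at 5.68, 1.68 and 3.28 RPKM in WT and at 407.6, 104.8 and 102.1 RPKM in DKI. All 3 DKI libraries were over 10-fold above the highest WT library, with DKI replicate 1 the highest. The log2 fold change of Maf was 5.28 ± 0.61 (limma adjusted p = 0.00966) and 4.62 without DKI replicate 1, where it was still called. On day 0 Maf was at 3.40 RPKM for WT and 3.46 RPKM for DKI. Selenop, a secreted carrier of selenium, was at 35.6, 11.3 and 21.2 RPKM in WT and 1524, 217.1 and 463.9 RPKM in DKI (4.64 ± 0.75, limma adjusted p = 0.0211). Its call was lost without any 1 WT library, and its log2 fold change was 3.89 without DKI replicate 1 and 5.29 without DKI replicate 2.

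Members of the MS4A family of tetraspan membrane proteins were in this set, Ms4a7, Ms4a6b and Ms4a6c. Ms4a7 was at 7.01, 9.09 and 13.6 RPKM in WT and 697.0, 188.1 and 164.7 RPKM in DKI (4.73 ± 0.57, limma adjusted p = 0.0105, and 4.07 without DKI replicate 1). It was under 2 RPKM in both genotypes on day 0, at 1.69 RPKM for WT and 1.63 RPKM for DKI. Ms4a6c and Ms4a6b had started high, at 388.6 and 88.5 RPKM in WT monocytes. On day 3 Ms4a6c was at 18.8, 3.94 and 12.5 RPKM in WT and 464.8, 106.5 and 108.0 RPKM in DKI. The log2 fold changes were 4.01 ± 0.73 for Ms4a6c and 4.91 ± 1.0 for Ms4a6b (limma adjusted p = 0.029 and 0.0389). Both calls were lost without any 1 WT library, and that of Ms4a6b also without DKI replicate 2. Without DKI replicate 1 the log2 fold changes were 3.30 and 3.72, and without DKI replicate 3 that of Ms4a6b was 5.74. These genes have close relatives, and reads shared between them could not be separated here.

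The other genes of the set varied less between replicates. Dhrs3, a retinaldehyde reductase, was at 3.39, 2.83 and 2.89 RPKM in WT and 118.6, 45.7 and 75.7 RPKM in DKI (4.23 ± 0.33, limma adjusted p = 0.00458). Rnase4, a secreted ribonuclease, was at 2.93, 2.40 and 5.05 RPKM in WT and 84.2, 56.2 and 70.8 RPKM in DKI (4.03 ± 0.26, limma adjusted p = 0.00294). Igfbp4, which binds insulin-like growth factors, was at 4.86 to 6.04 RPKM in WT and at least 47.8 RPKM in DKI. Rgl1, an activator of Ral GTPases, had a log2 fold change of 3.91 ± 0.45, and Tnfsf14, the TNF family ligand LIGHT, had 3.85 ± 0.45. Dhrs3, Rnase4, Igfbp4, Rgl1 and Tnfsf14 were called without any 1 library.

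**Figure D3:**
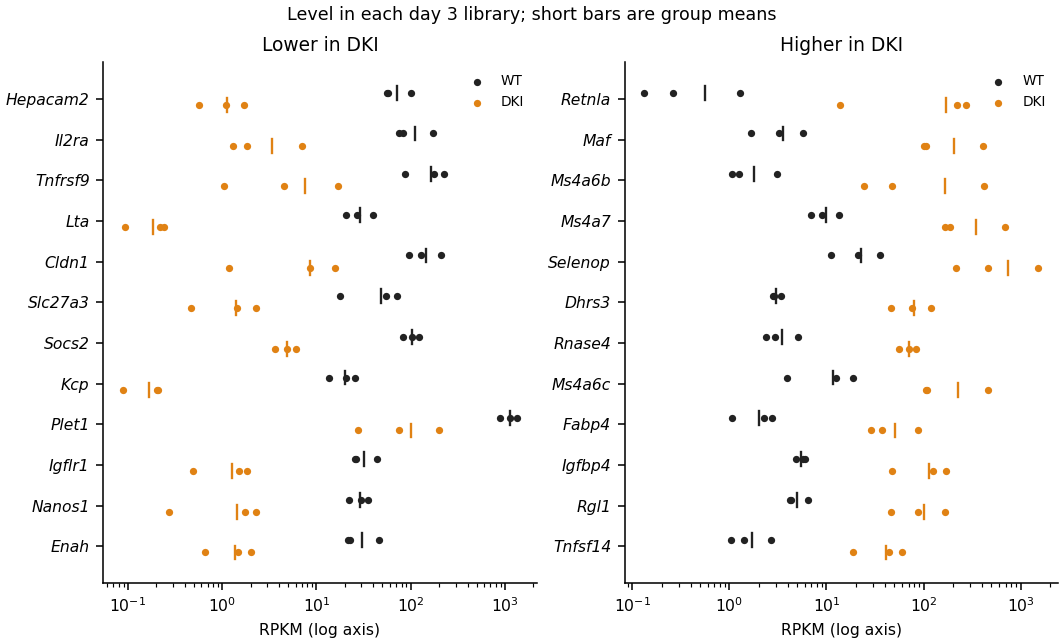
Level of the 12 genes with the largest change in each direction, outside the study's heatmaps, in each day 3 library. Each point is 1 library (WT black, DKI orange) on a log axis of RPKM and short bars are means of 3. No gene shown has a WT point among its DKI points, and for Maf the WT libraries are at 1.68 to 5.68 RPKM and the DKI libraries at 102.1 to 407.6 RPKM.

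Some of the higher genes lay in DKI between the WT level and the day 0 level. Arhgef10l, an activator of small GTPases, was at 59.5 RPKM in WT monocytes on day 0, at 2.38, 2.09 and 1.80 RPKM in WT on day 3, and at 28.9, 19.9 and 21.6 RPKM in DKI (2.97 ± 0.18, limma adjusted p = 0.00256). Slc16a10, a transporter of aromatic amino acids, was at 30.2 RPKM on day 0, at 1.25 to 1.6 RPKM in WT on day 3 and at 8.76 to 9.22 RPKM in DKI. Others were above both day 0 and WT. Ecm1, a matrix protein, was at 8.14 RPKM on day 0, at 8.42, 6.55 and 5.78 RPKM in WT on day 3 and at 108.9, 74.9 and 64.0 RPKM in DKI (3.38 ± 0.24, limma adjusted p = 0.003). Sesn1, a sestrin of the stress response, was at 4.39 RPKM on day 0, at 5.72 to 6.80 RPKM in WT and at 24.5 to 28.2 RPKM in DKI. These 4 genes were called without any 1 library.

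The knockin alleles lie on chromosome 11 of mm10, and the RPKM values do not show the mutations, so these values cannot check the genotype labels. Stat5a itself was lower in DKI, at 30.2, 58.0 and 39.7 RPKM in WT and 9.37, 13.4 and 14.4 RPKM in DKI (log2 fold change −1.67 ± 0.28, limma adjusted p = 0.0224). Its call was lost without WT replicate 2 or 3 or DKI replicate 2. Stat5b was at 17.1, 25.2 and 22.8 RPKM in WT and 14.9, 12.6 and 16.5 RPKM in DKI, with a change of −0.53 ± 0.19 that was not called (limma adjusted p = 0.143). Within 2 Mb of the 2 genes, 65 genes were fitted and 7.69% were called, near the 7.42% of all genes. The lower ones were Stat5a, Ccr7, which is a gene of the dendritic heatmap, and Jup, a junction protein, and the higher ones were Igfbp4 and Tmem106a. Jup changed by −1.80 ± 0.31 and lost its call without any 1 WT library or DKI replicate 2, as did Tmem106a, whose 2.04 ± 0.39 was also lost with the replicate block (adjusted p = 0.0724). Within 10 Mb, 188 genes were fitted and 8.51% were called.

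The feedback genes of STAT5 and the parts of the GM-CSF pathway were lower in DKI or not called. Of 18 genes listed, 17 were in the table and all 17 were fitted, with 6 lower (35.3%, beside 4.21% of all fitted genes), none higher and a median log2 fold change of −0.75, beside −0.11 over all fitted genes. The lower genes were Socs2, Il2ra, Cish, Jak2, Bcl6 and Csf2rb2. The list summed to 0.626%, 0.633% and 0.620% of all RPKM in WT and 0.414%, 0.38% and 0.375% in DKI. This gap has an exact two-sided permutation p of 0.1, the smallest that 3 against 3 libraries can give, and 0.223 when adjusted over the 29 shares and measures tested. Leaving out DKI replicate 1 gave 8 lower genes, and replicates 2 and 3 alone gave 6.

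Socs2, a suppressor of cytokine signalling, was at 102.9, 121.4 and 82.0 RPKM in WT and 6.11, 3.61 and 4.84 RPKM in DKI, and under 0.2 RPKM before culture. The log2 fold change of Socs2 was −4.14 ± 0.22 (limma adjusted p = 0.00239). Cish, the feedback inhibitor CIS, was at 200.1, 176.5 and 175.1 RPKM in WT and 28.3, 35.2 and 51.0 RPKM in DKI (−2.28 ± 0.24, limma adjusted p = 0.0069). Both genes stood above their day 0 level in DKI, where the means had been 0.153 RPKM for Socs2 and 1.90 RPKM for Cish. Il2ra, the alpha chain of the IL-2 receptor, was at 172.7, 75 and 82.4 RPKM in WT and 1.82, 1.30 and 7.04 RPKM in DKI (−4.79 ± 0.54, limma adjusted p = 0.00947). Jak2 was at 289.3, 321.1 and 294.4 RPKM in WT and 62.5, 65.3 and 82.4 RPKM in DKI (−2.10 ± 0.18, limma adjusted p = 0.00477). The DKI values of Jak2 were near its day 0 means of 49.9 and 50.6 RPKM. Socs2, Cish, Il2ra and Jak2 were called without any 1 library and with the replicate block.

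The remaining members differed in pattern. Bcl6, a transcriptional repressor, was at 16.9 to 27.5 RPKM in WT and 5.76 to 7.01 RPKM in DKI, both below the day 0 mean of 61.7 RPKM in WT. Csf2rb2, which shares most of its sequence with Csf2rb and thus may share reads with it, was at 368.2 to 450.2 RPKM in WT and 197.6 to 245.2 RPKM in DKI (−0.92 ± 0.19, limma adjusted p = 0.0405, and 0.0711 with the replicate block), and kept its call only without DKI replicate 1. Csf2ra, the alpha chain of the GM-CSF receptor, was at 186.5 to 224.4 RPKM in WT and at 70.7, 161.1 and 153.0 RPKM in DKI and was not called (limma adjusted p = 0.223). By antibody staining, the study found more of the alpha chain and of the common beta chain in DKI than in WT MDCs. The RNA levels given here do not measure these proteins. Pim1, a kinase that STAT5 is known to induce, was at 140.3 to 181.2 RPKM in WT and 70.5 to 208.6 RPKM in DKI, and Socs1 and Socs3 overlapped between genotypes as well.

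STAT5 binds the motif TTCNNNGAA, which reads the same on both strands. RefSeq promoter windows of 300 bases (build GRCm38.p6, the build mm10) from 250 before to 50 after a gene's start were at hand for 329 of the 410 lower genes (80.2%) and for 7859 of the 9740 fitted genes. The motif was in 9.79% of the 419 windows of lower genes, 6.87% of the 10024 windows of all fitted genes and 8.30% of the 32851 windows of all genes. At least 2 copies were in 1.19%, 0.419% and 0.457%. Of the higher genes only 248 of 313 (79.2%) had a window, under the 80% needed, so that check is void. Their windows held the motif in 7.72% and at least 2 copies in 1.19%, the same share as the lower genes. These shares are a description of the letters in the windows and say nothing of binding. The 5 lower genes with at least 2 copies, chosen after this count was seen, were Aldh18a1, Bcl6, Cish, Il18r1 and Lta. For Socs2 no window was at hand, and those of Il2ra and Stat5a held no copy.

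The sequences of Cish, Bcl6, Lta, Tnfrsf9 and Csf2rb2 are shown because these genes were lower in DKI, are described above and hold a copy, and the spacing of copies can be read from them. Capitals mark the motif, and each runs 5′ to 3′ on the strand of the gene.
Cish, chr9:107296654-107296683, plus strand: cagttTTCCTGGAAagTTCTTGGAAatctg
Bcl6, chr16:23981323-23981491, minus strand: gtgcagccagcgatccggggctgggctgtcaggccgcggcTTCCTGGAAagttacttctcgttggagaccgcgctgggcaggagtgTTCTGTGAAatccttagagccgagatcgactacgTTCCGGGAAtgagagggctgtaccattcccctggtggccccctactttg
Lta, chr17:35205352-35205543, minus strand: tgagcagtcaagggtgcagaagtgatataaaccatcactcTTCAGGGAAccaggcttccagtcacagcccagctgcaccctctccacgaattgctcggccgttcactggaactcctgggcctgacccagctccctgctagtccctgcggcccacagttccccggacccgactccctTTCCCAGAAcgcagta
Tnfrsf9, chr4:150927823-150927911, plus strand: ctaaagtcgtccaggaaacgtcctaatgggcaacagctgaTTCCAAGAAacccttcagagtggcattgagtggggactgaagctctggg
Csf2rb2, chr15:78305722-78305776, minus strand: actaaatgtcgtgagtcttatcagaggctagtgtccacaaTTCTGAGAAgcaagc
The copies in Cish lie at the annotated start of the gene with 2 bases between them. Those in Bcl6 are 37 and 25 bases apart and those in Lta 127 bases apart, all before the start. Tnfrsf9 and Csf2rb2 have 1 copy each.

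Some genes of the dendritic lineage and of mature or migrating dendritic cells were lower in DKI beyond those of the heatmaps, and over 50% of each list was not called. Of 18 lineage genes listed, all in the table, 13 were fitted, of which 5 were lower (38.5%, beside 4.21% of all fitted genes), 1 was higher and the median log2 fold change was −1.22. Of the 13, 5 passed the filter through the WT libraries only, so this median takes in genes that had to be lower. Zbtb46, a transcription factor of classical dendritic cells, was at 15, 15.7 and 9.73 RPKM in WT and 1.65, 3.21 and 3.06 RPKM in DKI (−1.99 ± 0.26, limma adjusted p = 0.0126). Zfp366, known as DC-SCRIPT, was at 23.7, 22.8 and 15.7 RPKM in WT and 2.30, 4.83 and 2.36 RPKM in DKI (−2.42 ± 0.28). Kmo, an enzyme of tryptophan breakdown, was at 149.4, 82.3 and 101.6 RPKM in WT and 17.7, 11.7 and 21.2 RPKM in DKI (−2.64 ± 0.30). Epcam and Siglecg were lower too (−2.98 and −1.21), but Siglecg lost its call without any 1 of the 6 libraries. Epcam lost its call without any 1 WT library or DKI replicate 3, and its log2 fold change was −3.57 without DKI replicate 2.

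Sirpa, a surface receptor of myeloid cells that binds CD47, went the other way, at 185.9, 137.4 and 168.7 RPKM in WT and 452.2, 389.2 and 366.6 RPKM in DKI (1.30 ± 0.20, limma adjusted p = 0.0194). It was not called without any 1 WT library or DKI replicate 2. Zbtb46 lost its call without WT replicate 1 or 2, while Kmo and Zfp366 were called without any 1 library. Kmo was not called when the estimate of spread was shared with day 6, nor Zfp366 with replicates 2 and 3 alone. The lineage list had 4 lower genes and 1 higher without DKI replicate 1 or with the replicate block, and 2 and 1 with replicates 2 and 3 alone.

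Of 24 genes of mature and migrating dendritic cells, 20 were fitted, 7 were lower (35%, beside 4.21% of all fitted genes) and none was higher, with a median of −1.26 beside −0.11 over all. The shares of both lists in the summed RPKM overlapped between the genotypes (exact permutation p = 0.2 for lineage genes and 0.6 for mature genes). Of the 20, 6 had passed the filter through WT only. Here WT replicate 2 was the highest WT library for most of the genes described. Nudt17 was at 12.7, 31.7 and 6.30 RPKM in WT and 0.541, 0.392 and 0.306 RPKM in DKI (−3.39 ± 0.51, limma adjusted p = 0.0185). Lad1 was at 2.87, 5.97 and 2.30 RPKM in WT and 0.298, 0.178 and 0.0966 RPKM in DKI, and Tmem123 was at 368.9, 606.5 and 278.6 RPKM in WT and 137.9, 152.9 and 134.9 RPKM in DKI. The other lower genes were Pdcd1lg2, which encodes the checkpoint ligand PD-L2, Ramp3, Cacnb3 and Tnfrsf9. Fscn1, the actin bundler of mature dendritic cells, was at 106.1, 271.2 and 26.7 RPKM in WT and 9.0, 4.70 and 0.421 RPKM in DKI and narrowly missed the threshold (limma adjusted p = 0.0502, and 0.0216 with the replicate block).

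Many of these calls did not outlast the loss of a library, which holds for most called genes (134 of the 723 were called in all 6 such fits). With replicates 2 and 3 alone, 1 gene of the list was lower, and without DKI replicate 1 there were 4. Over all genes the lower calls were 206 and 389, beside 410 with all 6 libraries. Tmem123 was not called when any 1 library was left out or with the block (adjusted p = 0.0518), Lad1 was called only without DKI replicate 1, and Nudt17 lost its call without WT replicate 1. Pdcd1lg2, Ramp3 and Cacnb3 were each called in only 1 of the 6 fits that left out a library. Ccl5, a chemokine on the same list, was at 102.5, 280.8 and 51.3 RPKM in WT and at 1773, 14.6 and 7.42 RPKM in DKI, so that DKI replicate 1 was the highest and the other two DKI libraries the lowest.

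Some macrophage genes outside the heatmaps were higher in DKI, and most were not called. Of 26 resident macrophage genes listed, 25 were in the table and 21 were fitted, 4 of which had passed the filter through DKI only. Their median log2 fold change was 2.05, with 4 genes higher (Maf, Selenop, Gas6 and Cd68), or 19% beside 3.21% of all fitted genes. Only Axl was lower (4.76%, near the 4.21% of all fitted genes), and 16 were not called. With the replicate block there were 7 higher genes, and without DKI replicate 1 there were 5 higher and none lower. The list summed to 0.513% to 0.661% of all RPKM in WT and to 2.57%, 1.55% and 1.48% in DKI (exact permutation p = 0.1, the smallest possible, and 0.223 adjusted over the 29 measures). Gas6, the ligand of the receptors AXL and MERTK that take up dying cells, was at 4.92, 2.36 and 2.10 RPKM in WT and 89.9, 15.8 and 39.0 RPKM in DKI (3.32 ± 0.61, limma adjusted p = 0.029). Axl, one of its receptors, was at 258.8, 162.0 and 299.3 RPKM in WT and 66.4, 52.6 and 108.8 RPKM in DKI (−1.67 ± 0.35, limma adjusted p = 0.0409). Gas6 and Axl thus changed in opposite directions, whereas Mertk, the gene of the other receptor, was called higher like Gas6.

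The calls of Gas6 and Axl were lost without any 1 WT library. That of Gas6 was also lost without DKI replicate 3, and that of Axl without DKI replicate 1 or 2. The log2 fold change of Gas6 was 2.72 without DKI replicate 1 and 3.93 without DKI replicate 2. Cd68, a membrane protein of lysosomes, was at 188.2 to 426.6 RPKM in WT and 758.1 to 1050 RPKM in DKI (1.56 ± 0.34, limma adjusted p = 0.0475, and 0.0622 with the block), and lost its call without any 1 of the 6 libraries. C1qa, a chain of the complement protein C1q, ranged from 5.43 to 187.1 RPKM in WT and from 176.1 to 1768 RPKM in DKI. It was called only with the block (adjusted p = 0.138 without it and 0.0208 with it).

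A minority of lysosomal genes was called higher. Of 32 genes listed, 30 were in the table and fitted, 6 were higher (Ctsb, Ctsd, Ctsl, Lamp1, Lgmn and Tpp1), or 20% beside 3.21% of all fitted genes, and 27 had a positive log2 fold change, with a median of 0.61. The list summed to 2.06%, 1.99% and 2.91% of all RPKM in WT and to 5.92%, 4.25% and 5.05% in DKI (exact permutation p = 0.1, adjusted 0.223). Ctsl, the protease cathepsin L, was at 91.0, 73.1 and 275.5 RPKM in WT and 1419, 1656 and 1167 RPKM in DKI (3.50 ± 0.51, limma adjusted p = 0.0165). Ctsd was at 326.9, 530.5 and 841.9 RPKM in WT and 3358, 1929 and 3540 RPKM in DKI (2.43 ± 0.44), and Ctsb at 239.8, 360.7 and 526.8 RPKM in WT and 3145, 1466 and 1429 RPKM in DKI (2.39 ± 0.44). WT replicate 3 had the highest WT value of each of these proteases. Lyz2, which encodes lysozyme, was at 2321, 731.8 and 2630 RPKM in WT and 12770, 7417 and 18910 RPKM in DKI (2.88 ± 0.63, limma adjusted p = 0.0468), against 11870 RPKM in WT monocytes on day 0.

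With the replicate block 3 genes of the lysosome list were higher, and Ctsb and Lamp1 were not (adjusted p = 0.0742 and 0.0542). With replicates 2 and 3 alone 2 were higher, and without DKI replicate 1 there were 5. Lgmn and Tpp1 were each called in 1 of the 6 fits that left out a library. Lyz2 lost its call without any 1 of the 6 libraries, Ctsb was called only without DKI replicate 1, Ctsd and Lamp1 lost theirs without any 1 WT library or DKI replicate 3, and Ctsl without WT replicate 1 or 2.

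Genes of iron, lipid and clotting moved with a few members each. In the iron and heme list, 16 of 18 genes were fitted and 4 were higher (25%, beside 3.21% of all fitted genes), with a median of 0.79. Of the 16, 2 passed the filter through DKI only, among them Slc40a1, so that they had to be higher. The number of higher genes was 3 without DKI replicate 1 or with the block, and 1 with replicates 2 and 3 alone. Hmox1, which breaks down heme, was at 39.6, 43.8 and 46.1 RPKM in WT and 196.1, 192.5 and 149.6 RPKM in DKI (2.02 ± 0.17, limma adjusted p = 0.00477), and was called without any 1 library. Slc40a1, the iron exporter ferroportin, was at 0.201, 1.79 and 0.800 RPKM in WT and 6.91, 8.19 and 3.76 RPKM in DKI (1.95 ± 0.39, limma adjusted p = 0.0363). Hebp1, a heme-binding protein, and Steap3, a ferrireductase, had 1.82 ± 0.31 and 1.0 ± 0.22. Slc40a1 was called only without DKI replicate 3, Steap3 lost its call without any 1 of the 6 libraries and with the block (adjusted p = 0.0885), and Hebp1 lost its call without WT replicate 1 or 2 or DKI replicate 3.

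In the list of lipid uptake, storage and efflux, 19 of 22 genes were fitted, 3 were higher (15.8%, beside 3.21% of all fitted genes) and none was lower (median 0.85). Of the 19, 1 passed the filter through DKI only, the called gene Nr1h3, which thus had to be higher. Fabp4, a fatty acid carrier, was at 2.74, 1.08 and 2.28 RPKM in WT and 87.4, 37.6 and 28.9 RPKM in DKI (3.99 ± 0.44, limma adjusted p = 0.00826). Nr1h3, the sterol receptor LXR alpha, was at 0.515 to 0.626 RPKM in WT and at 13.7, 5.56 and 3.04 RPKM in DKI (2.23 ± 0.46, limma adjusted p = 0.0393). Npc1, which exports cholesterol from lysosomes, was at 40.3 to 48.7 RPKM in WT and 74.7 to 86.5 RPKM in DKI (0.85 ± 0.15, limma adjusted p = 0.0277). With the block only Fabp4 was called (adjusted p = 0.0599 for Nr1h3 and 0.0646 for Npc1). Both were called only when DKI replicate 1 was left out or, for Nr1h3, DKI replicate 3. Without DKI replicate 1 the list had 5 higher genes and with replicates 2 and 3 alone it had 1.

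Of 20 genes of complement and coagulation, 18 were fitted, 5 of them through DKI only, and 2 were higher (11.1%, beside 3.21% of all fitted genes, median 1.08), or 3 without DKI replicate 1. With the replicate block 2 were higher and 1 was lower. Thbd, the anticoagulant receptor thrombomodulin, was at 0.214, 0.229 and 0.351 RPKM in WT and 5.05, 6.20 and 5.21 RPKM in DKI (2.36 ± 0.18, limma adjusted p = 0.00458). On day 0 it had been at 30.6 RPKM for WT and 32.9 RPKM for DKI, so that both genotypes were far below it. Serpinb2, an inhibitor of plasminogen activators, was at 22.7, 4.95 and 11.6 RPKM in WT and 191.5, 75.9 and 222.2 RPKM in DKI (3.62 ± 0.60, limma adjusted p = 0.0232), and lost its call without WT replicate 2 or 3 or DKI replicate 3. C3, the central complement component, was at 77.1 to 110.2 RPKM in WT and 127.3 to 720.4 RPKM in DKI and was not called (limma adjusted p = 0.122).

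**Figure D4:**
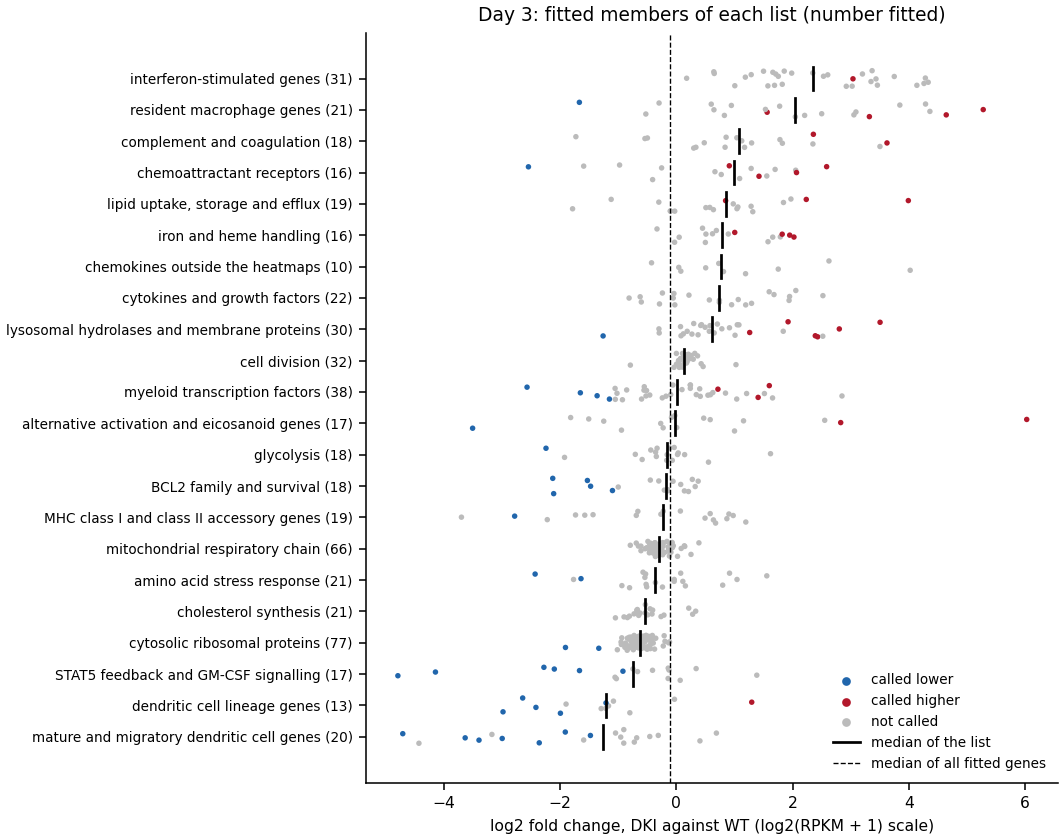
Changes of the fitted members of 22 gene lists. Each point is the log2 fold change of 1 gene between DKI and WT MDCs on day 3 (blue called lower, red called higher, grey not called), black bars are list medians and the dashed line is the median of all fitted genes, −0.11. Medians run from −1.26 for mature and migratory dendritic cell genes to 2.35 for interferon-stimulated genes, of which only 1 was called.

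The interferon-stimulated genes had the highest list median and almost no calls. All 31 genes listed were fitted, 6 of them through DKI only, and all 31 had a positive log2 fold change with a median of 2.35. The called share, 3.23%, was near the 3.21% of all fitted genes. Only Oas2, an antiviral enzyme and 1 of those 6, was called, at 0.477, 0.220 and 0.185 RPKM in WT and 23.9, 12.5 and 2.52 RPKM in DKI (3.04 ± 0.68, limma adjusted p = 0.0486). Values did not overlap between genotypes for 17 of the 31 genes, beside 36.3% of all fitted genes. For all of the genes described here DKI replicate 1 was the highest library and DKI replicate 3 the lowest of the DKI libraries. Rtp4, a chaperone of receptors, was at 204.2, 93.0 and 19.6 RPKM in DKI and 7.43, 0.439 and 3.44 RPKM in WT (limma adjusted p = 0.0502). Ifi204, a DNA sensor of the p200 family, was at 442.6, 114.8 and 44.3 RPKM in DKI and 4.95 to 21.1 RPKM in WT (limma adjusted p = 0.068). Parp14, an ADP-ribosyltransferase, was at 160.5, 86.3 and 36.1 RPKM in DKI and 22.5 to 23.2 RPKM in WT (limma adjusted p = 0.0895).

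Without DKI replicate 1 the median of the 31 genes was 1.13, 4 genes had negative values and none was called (limma), and 15 had an unadjusted p under 0.05. Oas2 was called only without DKI replicate 3, where the log2 fold change was 3.83, and it was 2.42 without DKI replicate 1. With the replicate block none of the list was called by limma (adjusted p = 0.0537 for Oas2). Cxcl10, a chemokine induced by interferon, was at 469.0, 17.8 and 7.03 RPKM in DKI and 5.64, 0.314 and 0.904 RPKM in WT.

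**Figure D5:**
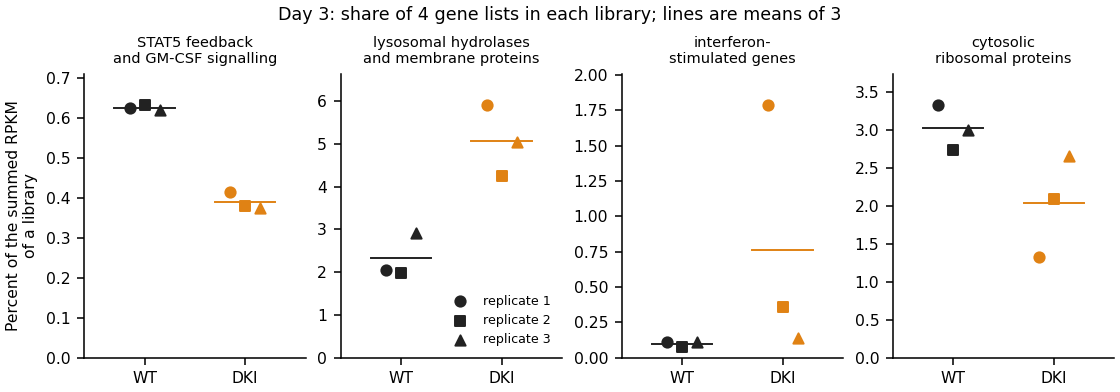
Share of 4 gene lists in the summed RPKM of each day 3 library, in percent, with replicates 1, 2 and 3 as circles, squares and triangles and lines at the means of 3. DKI replicate 1 is at 1.79% for interferon-stimulated genes while all other libraries are at 0.0722% to 0.358%, and the STAT5 feedback list has all 3 DKI libraries at 0.375% to 0.414% and all 3 WT libraries at 0.620% to 0.633%.

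Genes of growth and basic metabolism showed small changes, few of which were called. Of 83 cytosolic ribosomal protein genes, 77 were fitted and all 77 had a negative log2 fold change, with a median of −0.63. Median centring and quantile normalization of the libraries kept all 77 negative, with medians of −0.55 and −0.58. Only 2 were called, Rpsa and Rpl3l (2.6%, beside 4.21% of all fitted genes called lower), and 32 had an unadjusted p under 0.05. Rpl3l passed the filter through WT only. The share of these genes was 3.33%, 2.74% and 3.00% in WT and 1.33%, 2.09% and 2.66% in DKI. In DKI the order of these shares was the reverse of that for interferon-stimulated genes, with replicate 1 the lowest. Without DKI replicate 1 the median was −0.41 and 71 of the 77 were negative. Ribosomal protein genes have many processed copies in the genome, so their levels are uncertain. Gapdh, another gene with many copies and abundant in most cells, was listed at only 0.392 to 1.13 RPKM (as GAPDH in the table), and how the counting treated copies was not tested. Rpl3l, a form of muscle, was at 3.09 to 6.75 RPKM in WT and 0.223 to 0.886 RPKM in DKI, and Rpsa at 43.2, 36.4 and 29.96 RPKM in WT and 8.98, 14.9 and 19.1 RPKM in DKI. Rpsa lost its call with the block (adjusted p = 0.0908), and without any 1 WT library or DKI replicate 2, and Rpl3l without WT replicate 2 or 3 or DKI replicate 2.

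None of the 66 fitted genes of the mitochondrial respiratory chain was called by limma (5 had an unadjusted p under 0.05), and 60 had a negative value, with a median of −0.29. Cox5a was at 298.3, 366.2 and 389.4 RPKM in WT and 181.3, 252.8 and 260.3 RPKM in DKI, a change of −0.61 ± 0.23. Without DKI replicate 1 the median was −0.09 and 45 of the 66 were negative. None of the 21 fitted genes of cholesterol synthesis was called by limma either (4 had an unadjusted p under 0.05). Their median was −0.53 with all libraries and −0.11 without DKI replicate 1, where the median of all genes was −0.03. Mvk, the mevalonate kinase of this pathway, was at 28.4 to 33.3 RPKM in WT and 12.6 to 22.4 RPKM in DKI, with DKI replicate 1 the lowest library.

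None of the 32 genes of cell division was called by limma (1 had an unadjusted p under 0.05). Their median was 0.14 with all libraries, with 2 of the 32 negative, and 0.61 without DKI replicate 1. With replicates 2 and 3 alone the median was 0.89 and 20 of the 32 had an unadjusted p under 0.05, with none called. Mki67, a marker of dividing cells, was at 19.5, 21.3 and 7.90 RPKM in WT and 22.4, 39.6 and 35.1 RPKM in DKI, against 129.4 RPKM in WT monocytes on day 0, a change of 1.03 ± 0.40 (limma adjusted p = 0.168).

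In glycolysis, 18 of 20 genes were fitted and only Pfkp, a phosphofructokinase, was called (5.56%, beside 4.21% of all fitted genes). It was at 250.5, 230.8 and 281.8 RPKM in WT and 31.0, 70.8 and 66.9 RPKM in DKI (−2.24 ± 0.33, limma adjusted p = 0.0174), against 59.6 RPKM in WT monocytes, and lost its call without any 1 WT library. In the amino acid stress response, 21 of 24 genes were fitted and 2 were lower (9.52%). Sesn2, a sensor of leucine, was at 60.2, 39.3 and 39.3 RPKM in WT and 15.2, 11.8 and 14.9 RPKM in DKI (−1.64 ± 0.21, limma adjusted p = 0.0126), so that the paralogs Sesn1 and Sesn2 moved in opposite directions. Slc7a5, the transporter of large neutral amino acids, was at 138.2, 98.9 and 159.6 RPKM in WT and 11.6, 28.3 and 37.9 RPKM in DKI (−2.43 ± 0.44, limma adjusted p = 0.0277), and lost its call without any 1 WT library or DKI replicate 2.

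Transcription factors changed in both directions. Of 45 listed 38 were fitted, and 4 were lower (10.5%, beside 4.21% of all fitted genes) and 3 higher (7.89%, beside 3.21%), with a median of 0.02. Vdr, the vitamin D receptor, was at 40.6, 57.1 and 38.1 RPKM in WT and 4.87, 6.65 and 9.10 RPKM in DKI (−2.57 ± 0.25, limma adjusted p = 0.0069). Zeb2, a repressor with a role in monocytes and dendritic cells, was at 24.9, 23.0 and 30.2 RPKM in WT and 96.4, 68.2 and 78.7 RPKM in DKI (1.6 ± 0.19, limma adjusted p = 0.00996), between WT and the day 0 mean of 133.8 RPKM. Etv3 changed by −1.36 ± 0.18 and Irf5, a regulator of inflammatory cytokines, by −1.15 ± 0.18 (limma adjusted p = 0.0128 and 0.0197). The others were the NF-kappaB subunit Rel (lower, −1.65), the retinoid receptor Rxra (higher, 0.71) and Tfec (higher, 1.41). Vdr and Zeb2 were called without any 1 library. Rel lost its call without WT replicate 3 or DKI replicate 2 or 3, and Rxra and Tfec without any 1 of the 6 libraries. The list had 5 lower genes and 1 higher without DKI replicate 1, and 5 and 3 with the replicate block. Etv3 lost its call without WT replicate 3, and Irf5 kept its call only without DKI replicate 1.

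No cytokine or growth factor of the 22 fitted (of 31 listed) was called by limma (7 had an unadjusted p under 0.05), and 1 was higher without DKI replicate 1. Il1rn, the antagonist of the IL-1 receptor, was at 30.3, 80.1 and 26.2 RPKM in WT and 144.9, 312.9 and 83.6 RPKM in DKI. In each same-numbered pair DKI was higher, and the change of 1.94 was called with the replicate block only (adjusted p = 0.0208, against 0.106 without it). Csf1, the growth factor of macrophages, was at 2.44, 11.9 and 8.59 RPKM in WT and 28.5, 29.99 and 25.6 RPKM in DKI (limma adjusted p = 0.0593). None of the 10 fitted chemokines outside the heatmaps was called by limma (2 had an unadjusted p under 0.05), and Ccl6, the one with the highest levels, was at 645.0 to 2212 RPKM in WT and 2017 to 4103 RPKM in DKI.

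Of 16 receptors for chemoattractants fitted (23 listed, median 1.0), 1 was lower (6.25%, beside 4.21% of all fitted genes). Another 4 were higher (25%, beside 3.21%). Of the 16, 2 passed the filter through DKI only (S1pr1 and C5ar2) and 1 through WT only (S1pr3), so their direction was fixed in advance. With the replicate block 1 was lower and 3 were higher. The sphingosine 1-phosphate receptors went apart. S1pr1 was at 0.403, 0.509 and 0.0616 RPKM in WT and 8.24, 7.30 and 5.32 RPKM in DKI (2.58 ± 0.24, limma adjusted p = 0.00616), and S1pr3 was at 6.45, 17.5 and 10.1 RPKM in WT and 0.397, 1.73 and 1.02 RPKM in DKI (−2.54 ± 0.40, limma adjusted p = 0.0194). C5ar2, a receptor for the complement peptide C5a, was at 0.438 to 0.828 RPKM in WT and 4.72 to 7.68 RPKM in DKI (2.07 ± 0.23). Cmklr1, the chemerin receptor, changed by 1.42 ± 0.30 and Ccr1 by 0.91 ± 0.20, and neither was called with the block (adjusted p = 0.0807 and 0.0701). S1pr3 lost its call without WT replicate 2 or 3, and Cmklr1 and Ccr1 kept their calls only without DKI replicate 1.

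In the list of MHC accessory genes, 19 of 20 were fitted and only H2-Ob was lower (5.26%, beside 4.21% of all fitted genes, median −0.23). H2-Ob, a chain of the modulator of peptide loading H2-O, was at 46.5, 13 and 42.8 RPKM in WT and 1.85, 3.02 and 6.81 RPKM in DKI (−2.78 ± 0.57, limma adjusted p = 0.0397). It lost its call without WT replicate 1 or 3 or DKI replicate 1 or 2. With the replicate block 3 genes were lower, among them H2-Oa, the partner chain (adjusted p = 0.0216, against 0.0567 without it), and H2-M2 (0.0155, against 0.0675). Without DKI replicate 1, 4 genes of the list were lower and 1 was higher, and the median was −0.74. This list held 3.46% of all RPKM in DKI replicate 1 and 1.17% to 1.46% in the other libraries.

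Among 17 fitted genes of alternative activation and eicosanoids (21 listed, 4 fitted through DKI only), Retnla and Hpgds were higher (11.8%, beside 3.21% of all fitted genes) and Aldh1a2 was lower (5.88%, beside 4.21%). Hpgds, a prostaglandin D synthase, was at 0.937, 3.75 and 2.16 RPKM in WT and 19.7, 29.95 and 15.2 RPKM in DKI (2.83 ± 0.38, limma adjusted p = 0.0135). Aldh1a2, which makes retinoic acid, was at 45.2, 104.4 and 30.2 RPKM in WT and 4.68, 1.48 and 6.38 RPKM in DKI (−3.50 ± 0.56, limma adjusted p = 0.0211, and 0.0634 with the block). Hpgds lost its call without WT replicate 3 and Aldh1a2 without WT replicate 1 or 2.

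In the BCL2 family, 18 of 20 genes were fitted, 5 were lower (27.8%, beside 4.21% of all fitted genes) and none was higher (median −0.18). Bcl2a1d was at 64.2, 96.0 and 65.5 RPKM in WT and 18.3, 14.4 and 16.1 RPKM in DKI (−2.13 ± 0.20, limma adjusted p = 0.00679). Bcl2a1a and Bcl2a1b, its near copies, were lower as well (−2.11 and −1.53), and reads may be shared among the copies. The death-promoting members Bmf and Pmaip1 were lower by −1.48 ± 0.24 and −1.10 ± 0.23 (limma adjusted p = 0.0227 and 0.0395), so the list's lower genes include both survival and death genes. With the block Bcl2a1d and Bcl2a1a were called and the others were not (adjusted p = 0.102 for Bcl2a1b, 0.0549 for Bmf and 0.078 for Pmaip1). Bcl2a1d was called without any 1 library. The list had 4 lower genes without DKI replicate 1. Bcl2a1b lost its call without any 1 of the 6 libraries, Bcl2a1a without any 1 WT library, Bmf without WT replicate 1 or 3 or DKI replicate 2, and Pmaip1 kept its call only without DKI replicate 1.

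Cd28, on the list of T cell markers, was at 0.854, 0.425 and 2.57 RPKM in WT and 16.7, 7.87 and 34.8 RPKM in DKI (3.07 ± 0.57, limma adjusted p = 0.0292). The other 5 genes of the list stayed at or under 1.79 RPKM in all 6 libraries, with Cd3e, a chain of the T cell receptor complex, at no more than 0.0531 RPKM. The call of Cd28 was kept only without DKI replicate 2. The 6 markers summed to 1.86 to 3.82 RPKM in WT and 10.4 to 35.1 RPKM in DKI.

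Called genes sat next to each other in a few places, counted over runs of at least 3 fitted neighbours called in the same direction. Outside the heatmaps there was a run of 4 lower genes on chromosome 9 from 107254927 to 107349683 (mm10), namely Mapkapk3, Cish, Hemk1 and 6430571L13Rik. 6430571L13Rik was at 4.88, 6.89 and 5.29 RPKM in WT and 0.0598, 0.169 and 0.239 RPKM in DKI (−2.52 ± 0.21, limma adjusted p = 0.00458), and its day 0 mean was 0 RPKM in WT. Mapkapk3, a stress kinase, had a smaller change of −0.97 ± 0.20 (limma adjusted p = 0.0399, and 0.0609 with the block) and lost its call without any 1 of the 6 libraries. On chromosome 4, from 122946850 to 123054949, Mfsd2a, Mycl and Trit1 were lower (−3.03, −3.45 and −0.83), though Trit1 was called only without DKI replicate 1 when a library was left out. Mfsd2a is a lipid transporter and Mycl a transcription factor of the MYC family, at 20.7, 14.5 and 8.69 RPKM in WT and 0.370, 0.276 and 0.422 RPKM in DKI. On chromosome 5, the Toll-like receptor gene Tlr6 and its neighbour Fam114a1 were higher (1.29 and 1.94), next to Tlr1, a gene of the macrophage heatmap, and Tlr6 lost its call without any 1 WT library. The near copies Bcl2a1d, Bcl2a1a and Bcl2a1b lie together on chromosome 9, from 88723288 to 89207838. Whether reads were counted by strand is not given in the sources used here, so reads of overlapping neighbours may be shared. By chromosome, the share of lower genes was highest on chromosome 6, with 38 of 493 genes (7.71%), beside 4.21% over all.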

How the data were processed

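RNA was measured in 6 groups of 3 libraries. The authors mapped single-end reads to mm10 (Subread), assigned them to RefSeq genes (featureCounts) and deposited RPKM values. Versions, strandedness and the handling of multi-mapping reads are not given in the sources used here. Depth was estimated from the smallest values of 1182 single-exon receptor genes, where 7 to 8 values per library marked 1 read and 26 of 32 other values were whole multiples (tolerance 0.02). Reads could not be rebuilt for most genes, so no count test was run.

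Genes were fitted with limma 3.58.1 (R 4.3.3, lmFit, eBayes with trend) on log2(RPKM + 1) of the 6 day 3 libraries, with genotype as the only term. Tables and figures used Python 3.11.15, pandas 2.3.3 and matplotlib 3.10.9. ± values are standard errors of log2 fold changes, with n = 3 per genotype. On simulated data (9486 genes) 80.6% of 4-fold and 91.8% of 8-fold changes were recovered and 5.59% of calls were false. The simulated noise was independent between libraries, with the same SD in both genotypes, and changes were set in 200 genes. The measured libraries differ in these respects, so the rates do not carry over to them. Deviations from the group means were shared within same-numbered pairs of libraries (correlations 0.163, 0.369 and 0.246, against −0.243 to −0.000386 for other pairs). The replicate numbers, which come from the labels, were thus taken as pairs in the fit with the block. Blocked values are given where they change the call of a gene named by the rules below, and not for every other list member. The p-values without the block measure the spread of the libraries within each genotype and take no account of these pairs. Those with the block measure how the difference between DKI and WT varied over the pairs.

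Named genes, outside the study's heatmaps, were the 12 largest changes per direction with the same sign in all 3 pairs, the next 4 by p and by difference in mean RPKM, the 5 highest with an interval inside 1.5-fold, the 4 smallest p-values of each list, and Stat5a, Stat5b and called genes within 2 Mb (1 of these is a heatmap gene and is named only). Other called list members and neighbours were named after their values were seen. Genes and lists were chosen with earlier results of these data known. Alternatives were other pseudocounts, filters, scalings and sets of libraries. The table holds 66 genes of chromosome X, and others were not analysed here. The values of a few genes, 1 call on the lysosome list among them, are not reported here.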

Additional observations from a re-analysis of the deposited data

How the results depend on the processing

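With 410 lower and 313 higher genes in the comparison as reported, no filter on mean RPKM gave 205 and 153. Sharing the estimate of spread with the day 6 libraries gave 625 lower genes, and sharing it with all 18 libraries gave 795 lower and 564 higher. Leaving out 1 library gave 107 to 389 lower and 83 to 326 higher genes. Replicates 2 and 3 alone, chosen after seeing the data, gave 206 and 163. The replicate block, another pseudocount (0.1 RPKM), a filter at 5 RPKM, both scalings and a fit with no intensity trend kept both counts within 1.5 times. Of the 723 called genes, 134 were called in all 6 fits with a library left out, and none changed sign there. The median log2 fold change stayed between −0.16 and −0.01. With the block (288 lower and 263 higher), 71 of the 85 named called genes were still called, and with no filter on mean RPKM 51 were. Sharing the spread with day 6 ended the calls of Cldn1, Plet1, Retnla, Kmo, Slc40a1 and Hpgds, and with all 18 libraries those of Npc1, Sesn2, Slc7a5, Steap3, Hpgds and Pmaip1. Median centring ended those of Oas2, Cmklr1 and Pmaip1, quantile normalization those of Oas2 and Nr1h3, and the pseudocount of 0.1 RPKM those of Slc40a1 and Ccr7. For a gene of 1 kb, values up to 0.0963 RPKM rest on 3 reads or fewer in the shallowest library, and 3 libraries per genotype limit every call.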
